A study of Homo sapiens with 8 samples.

Results

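Actin cytoskeleton and focal adhesion genes were examined in U-2OS cells after knockdown of CGGBP1, a protein that binds short CGG repeats in DNA. The set held 56 genes, chosen by name, among the 18388 genes with values: actins, proteins that build, cap, crosslink or pull on actin filaments, integrins, and proteins of the adhesion plaque. All 56 had a row, and all 56 passed the filter on low counts, as did 10138 genes in all. U-2OS is a human osteosarcoma line, and the cells used here also carried the Tet-ON transactivator. They were transfected with 50 nM siControl or with 50 nM of a pool of siRNAs against CGGBP1 (siCGGBP1), and the title of every library also names DMSO, with no dose or purpose given. After 72 h they received 75 µM 4-thiouridine (4sU) for 60 min, with 3 libraries in each group. A further siControl library without 4sU (0 µM) and another with 200 µM, each unreplicated, stayed out of the main comparison, are given as values, and were added to siControl in 1 alternative fit. Total RNA was read in 3′ end libraries, and SLAM-Seq, in which alkylated 4sU appears as T-to-C conversions, gave a new-to-total RNA ratio for each gene. The study describes its replicates as biological, but the labels do not say which libraries came from separate cultures, and p-values measure the spread between these libraries. The spread between pools, clones or other siRNAs was not measured, since each group used a single siRNA reagent in a single line.

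Actin is a small globular protein that polymerises into filaments. Profilin, cofilin, the Arp2/3 complex and capping protein set where filaments grow and shrink, tropomyosins and calponins cover them, and non-muscle myosin II with its light chains pulls on them. Bundled filaments, the stress fibres, end at focal adhesions, where integrins span the membrane and bind talin, vinculin, paxillin and the ILK-PARVA module inside the cell. Many of these genes are transcribed through SRF, which binds the CArG box in their promoters and is served by MRTF coactivators that bind free actin monomers.

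Between 10127519 and 19011714 reads were counted per library, and the members took 219661 to 460907 of them. CGGBP1, the targeted gene, had 108, 94.2 and 77.1 RPM (reads per 1000000 reads, after TMM scaling) in siControl and 18.4, 10.1 and 31.4 in siCGGBP1. These groups did not overlap, and the log2 fold change was -2.22 ± 0.387 (SE, adjusted p = 0.0138, edgeR quasi-likelihood test with Benjamini-Hochberg adjustment). Of the markers of the osteoblast lineage and mesenchyme, RUNX2, SPARC, COL1A1, CDH2 and FN1 passed the filter. ALPL (mean of 0.509 RPM in siControl and 0.866 in siCGGBP1) and CDH11 (6.59 and 15.7) did not pass it, and COL1A2 and TWIST1 had no row. CDH1, CD3E and PECAM1, which mark epithelium, T cells and endothelium, were at 0 in the 6 libraries compared. Of the epithelial markers EPCAM, KRT8 and KRT18 were detected in all 6. KRT8 had 165 ± 44.3 RPM in siControl and 179 ± 45.0 in siCGGBP1, KRT18 361 ± 69.1 and 168 ± 57.4, and EPCAM 5.94 ± 1.94 and 11.02 ± 3.67 (SD, n = 3). The KRT18 groups did not overlap, with a log2 fold change of -1.10 ± 0.259 (SE, adjusted p = 0.0526, edgeR). SPARC and COL1A1 were 2.40-fold and 2.48-fold higher in siCGGBP1 (adjusted p = 0.00634 and 0.00353, edgeR), and the part of these markers in the results that follow was not tested.

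Counts of members were set beside the share of all 10138 tested genes that met the same rule. The members were chosen with earlier results of these data known, and their read depth was not matched to that of all tested genes. The shares therefore describe the set and do not test it. The study called a gene by an adjusted p under 0.05 together with a log2 fold change past 1 either way. By these thresholds 4 of 56 members (7.14%) were lower in siCGGBP1, against 0.957% of all tested genes. These were ACTG1, MYH10, PFN1 and EZR. Only ACTA2 (1.79%) was higher, against 0.454% of all tested genes. At an adjusted p under 0.05 with any fold change, TPM4, ENAH and ACTB joined the lower genes, 7 of 56 (12.5%) against 1.21% of all tested genes. MYL6 joined the higher ones, 2 of 56 (3.57%) against 0.572%. The groups did not overlap for 15 members that were lower (26.8%, against 12.1% of tested genes) and for 7 that were higher (12.5%, against 12.1%). The median log2 fold change of the members was -0.09 and 36 of 56 (64.3%) lay below 0, against a median of 0.00 and 49.9% over all tested genes. At an unadjusted p under 0.05, 11 members were lower and 6 higher, and over all tested genes 8.32% were lower and 8.11% higher. DESeq2 called 9 members lower and 3 higher at an adjusted p under 0.05, against 3.45% and 2.55% of all tested genes. In bulk samples, fewer cells of a type and less RNA per cell cannot be told apart.

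**Figure D1:**
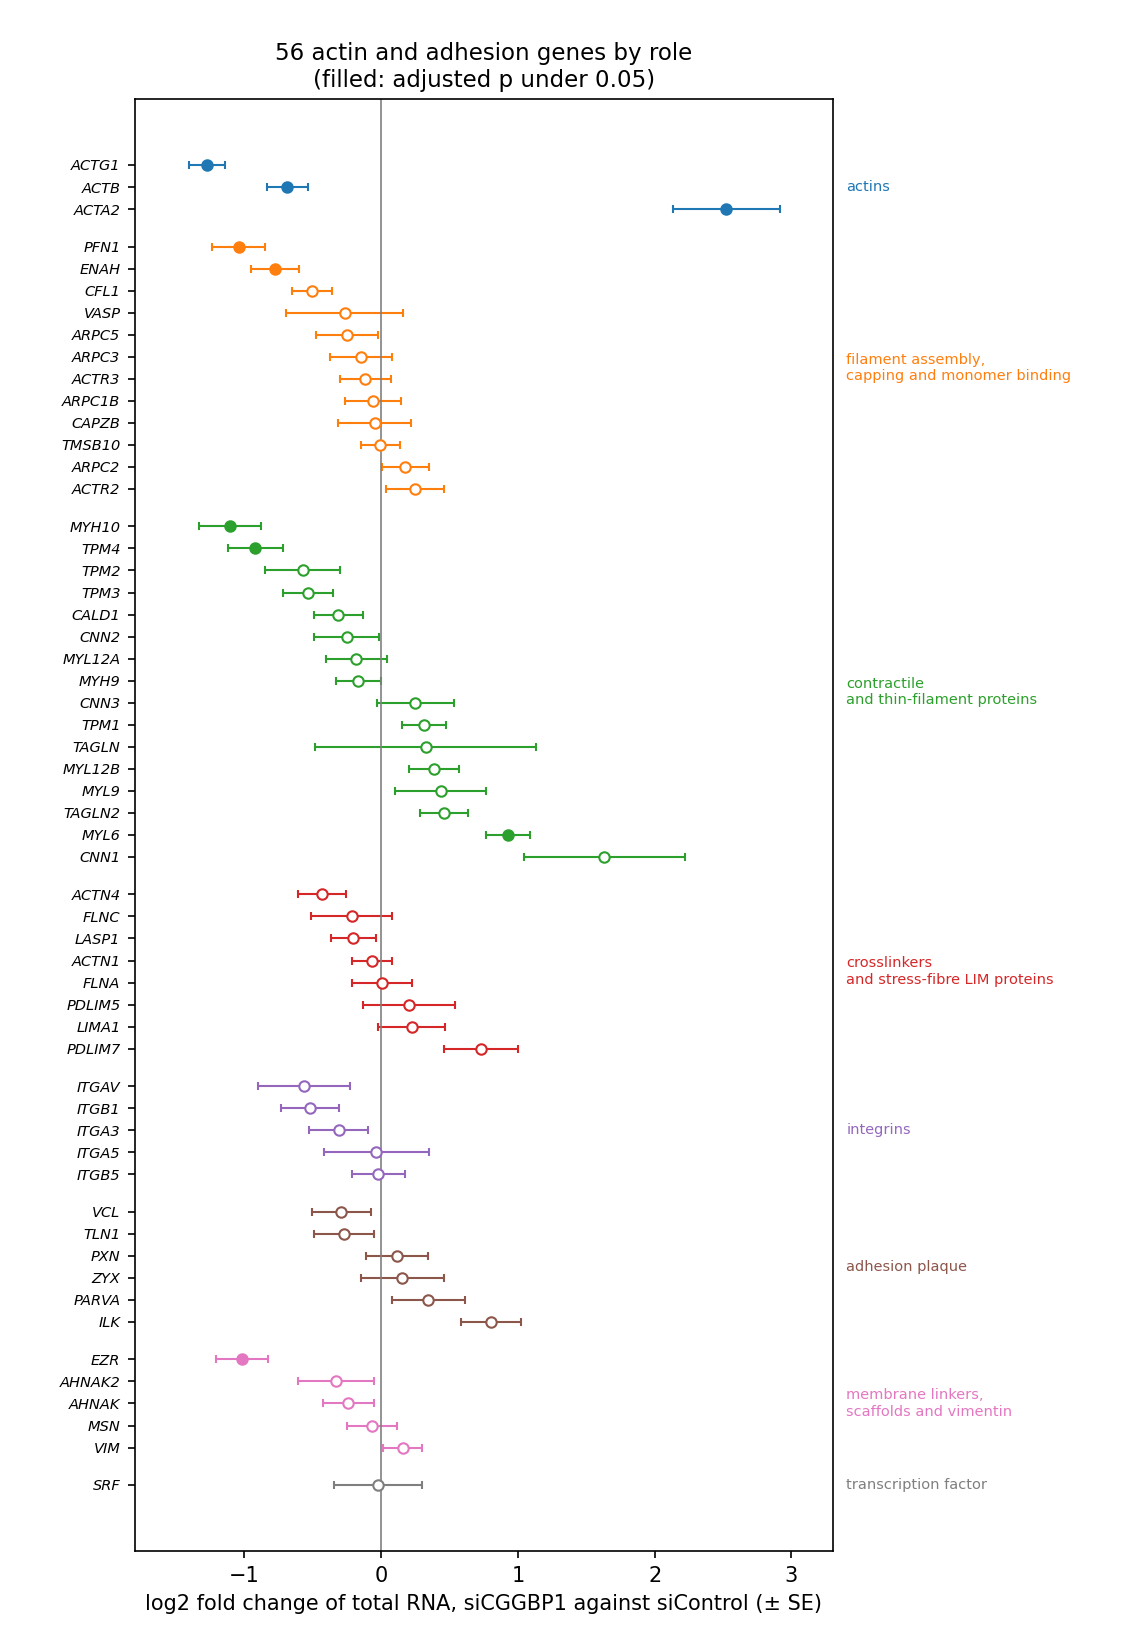
Log2 fold change of total RNA in siCGGBP1 against siControl for each of the 56 members, with its standard error, grouped and coloured by role. Filled points passed an adjusted p under 0.05: ACTG1, ACTB, PFN1, ENAH, MYH10, TPM4 and EZR lie to the left of 0, and ACTA2 and MYL6 to the right.

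Each of the single siControl libraries was read once, and for several members it lay far from the 3 siControl libraries at 75 µM. With both added to siControl, an alternative chosen after seeing the data, edgeR called 5 members lower and 2 higher at an adjusted p under 0.05, against 1.83% and 0.858% of tested genes. ACTG1, ENAH, EZR, MYH10, TPM4 and MYL6 were among them, ILK was new, and ACTB, PFN1 and ACTA2 were no longer called. Non-overlapping groups, 5 against 3, remained for 8 lower and 3 higher members, against 7.14% and 6.21% of tested genes. In the main comparison, ACTG1 kept its call with any single library left out. The calls of ACTB, ENAH and TPM4 were lost with each library left out in turn.

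All 3 actins passed the test, 2 of them lower and 1 higher in siCGGBP1, against 1.21% and 0.572% of all tested genes. ACTG1 encodes cytoplasmic gamma-actin (ENSG00000184009, chr17:81509413-81523847, minus strand, GRCh38). Its level was 2876, 2748 and 2806 RPM in siControl and 1102, 1154 and 1229 in siCGGBP1, with 2490.5 at 0 µM and 1732 at 200 µM 4sU. All siCGGBP1 libraries lay below all siControl libraries, including both single ones. ACTG1 fell to 41.3% of its siControl mean (2809.9 ± 64.0 to 1162 ± 63.8, SD, n = 3), a log2 fold change of -1.27 ± 0.129 (SE, adjusted p = 0.000675, edgeR). ACTB, cytoplasmic beta-actin (ENSG00000075624, chr7:5526409-5563902, minus strand), had 3126, 2349 and 2372 RPM in siControl and 1566, 1778 and 1529 in siCGGBP1. These did not overlap, but the 0 µM siControl library had 1726, which lies within the siCGGBP1 range, and the 200 µM library had 2245. ACTB fell by 0.69 ± 0.151 on the log2 scale (SE, adjusted p = 0.0399, edgeR), and leaving out any 1 library gave adjusted p-values from 0.0581 to 0.166. The sum of ACTB and ACTG1 made up 0.532 ± 0.0507% of all siControl reads and 0.276 ± 0.0134% of siCGGBP1 reads (SD, n = 3), against 0.440% and 0.398% at 0 and 200 µM.

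ACTA2 encodes the alpha-actin of smooth muscle, which myofibroblasts also use in stress fibres (ENSG00000107796, chr10:88935074-88991339, minus strand). It had 6.71, 12.01 and 9.12 RPM in siControl, 67 to 145 reads, and 62.8, 56.4 and 41.3 in siCGGBP1, 580 to 657 reads. ACTA2 rose 5.76-fold, from 9.28 ± 2.65 to 53.5 ± 11.1 RPM (SD, n = 3), a log2 fold change of 2.52 ± 0.391 (SE, adjusted p = 0.00769, edgeR). The unreplicated siControl libraries had 43.4 RPM at 0 µM, within the siCGGBP1 range, and 23.7 at 200 µM, between the groups. With these 2 libraries in siControl its log2 fold change was 1.496, with an adjusted p of 0.147 (edgeR), and without siCGGBP1 replicate 1 the adjusted p was 0.0722. The ACTA2 locus overlaps FAS and STAMBPL1, and STAMBPL1, on the other strand at its 3′ end, differed by 0.12 on the log2 scale (adjusted p = 0.940, edgeR).

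**Figure D2:**
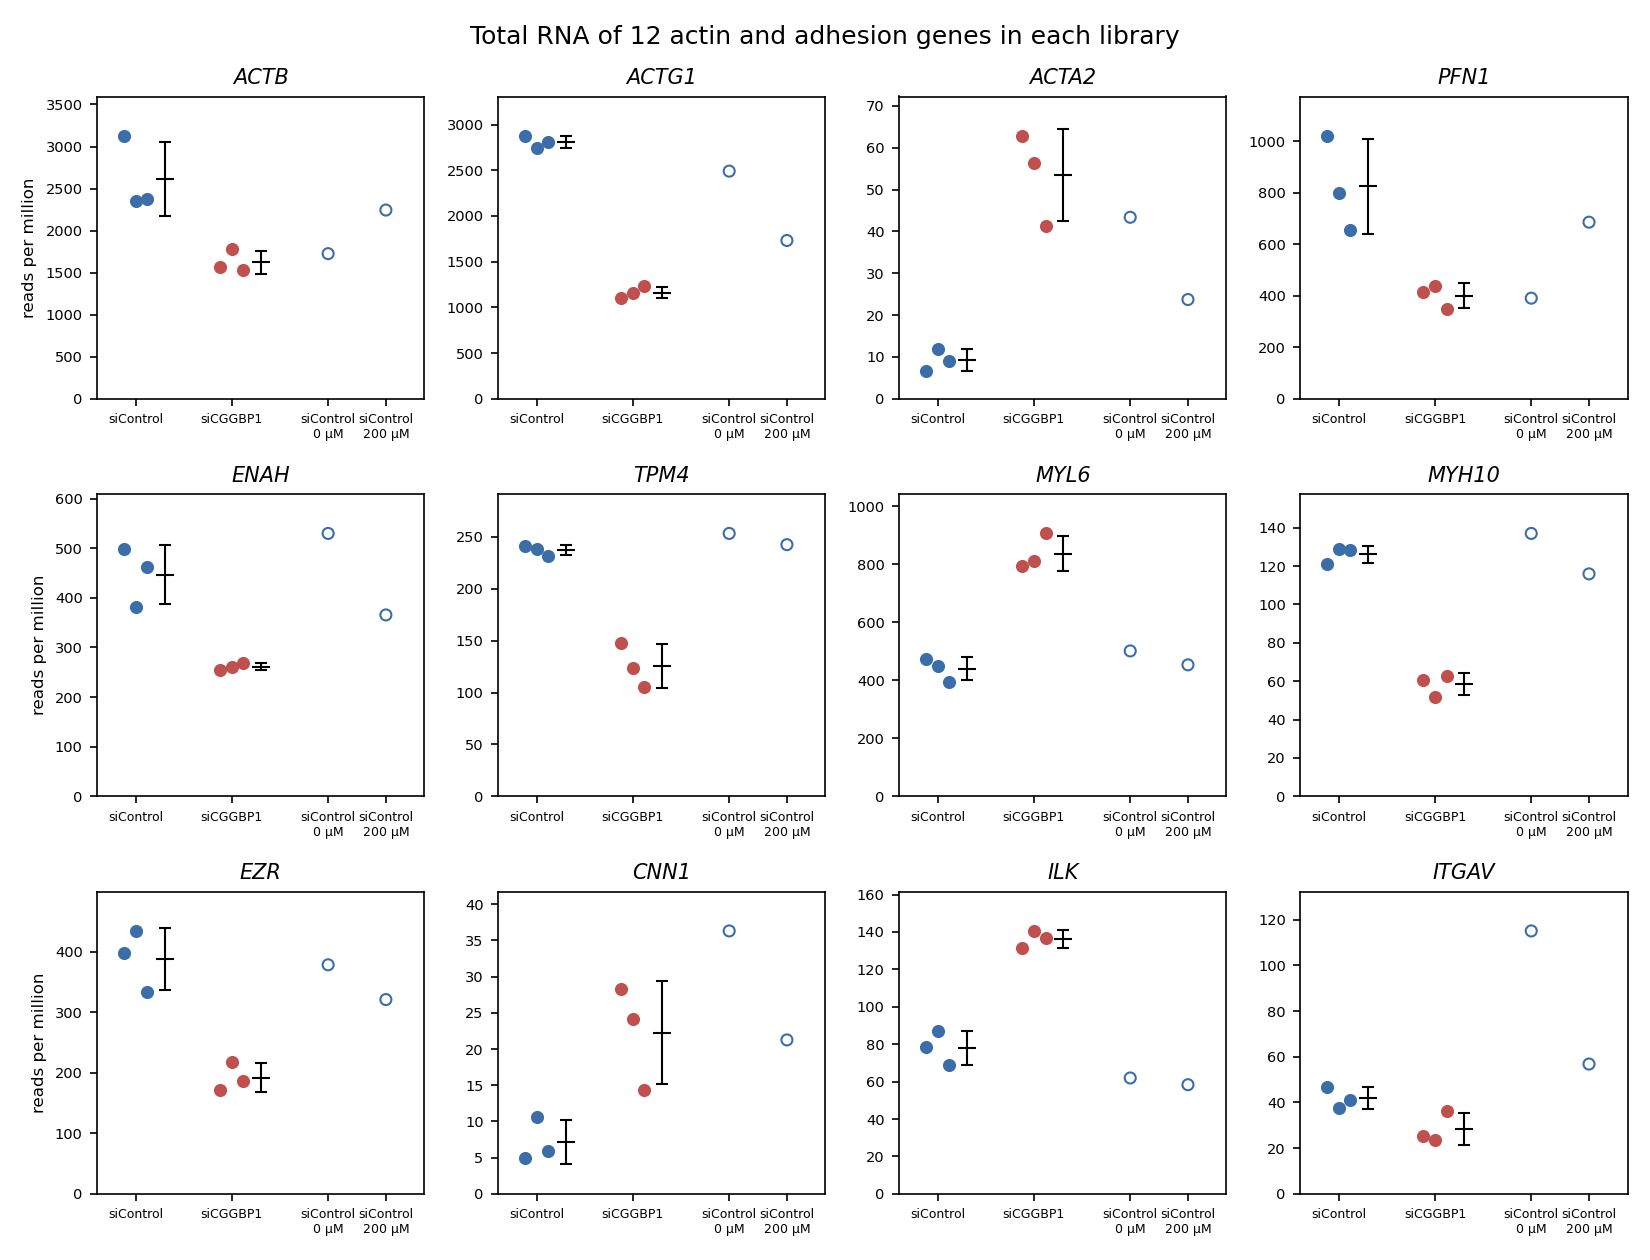
RPM of total RNA, scaled by TMM, for the 9 members past an adjusted p under 0.05 and for CNN1, ILK and ITGAV. Filled points are the 3 libraries of each group with 75 µM 4sU, black marks show their mean ± SD, and open points are the single siControl libraries with 0 and 200 µM 4sU. In ACTG1, MYH10, TPM4 and EZR the open points lie above every siCGGBP1 point, that of ACTG1 at 200 µM (1732 RPM) between the groups, and in ACTA2 and CNN1 they lie with or towards siCGGBP1.

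The CArG box was searched in the promoters of the members because SRF acts through it. RefSeq promoter windows on GRCh38.p14, running from 250 bases before to 50 after a gene start, were matched by symbol to 50 of the 56 members, in 81 windows. ACTB, ARPC1B, TAGLN, MYL9, ITGA3 and PARVA had no window, so their promoters were not searched for any motif. An exact box lay in 6 member windows (7.41%), those of ACTG1, ACTN1, CNN2, FLNA, SRF and TPM4, and in 1.29% of all 35116 windows. The box reads the same on both strands, so 1 search covers both. The stretches below show each exact box in capitals with up to 30 flanking bases on either side, read along the gene's own strand, from chr17:81512854-81512923 for ACTG1, chr14:68977698-68977767 for ACTN1, chr19:1026489-1026558 for CNN2, chrX:154374689-154374758 for FLNA, chr6:43171209-43171268 for SRF and chr19:16067335-16067404 for TPM4.
ACTG1: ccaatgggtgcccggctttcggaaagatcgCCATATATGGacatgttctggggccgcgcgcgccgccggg
ACTN1: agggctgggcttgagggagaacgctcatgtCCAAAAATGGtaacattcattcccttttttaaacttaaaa
CNN2: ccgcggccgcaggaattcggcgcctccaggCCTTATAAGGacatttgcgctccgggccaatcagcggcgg
FLNA: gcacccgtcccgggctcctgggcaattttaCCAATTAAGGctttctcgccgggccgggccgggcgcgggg
SRF: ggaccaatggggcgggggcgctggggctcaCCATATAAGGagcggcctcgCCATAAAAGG
TPM4: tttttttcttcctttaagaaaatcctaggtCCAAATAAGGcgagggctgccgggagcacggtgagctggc

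The box began 94 bases before the start in ACTG1 and in FLNA, 89 in CNN2, 171 in ACTN1 and 173 in TPM4, and SRF had a pair, 30 and 10 bases before its start. Of these 6 genes ACTG1 and TPM4 fell. The other 4 did not pass the test, with log2 fold changes of -0.07 for ACTN1, -0.25 for CNN2, 0.01 for FLNA and -0.02 for SRF. No exact box lay in the ACTA2 window, but the gene had a pair of near matches, with 1 G or C among the A and T positions, that began 121 and 71 bases before the start. They are shown in capitals within chr10:88952805-88952924, because ACTA2 was the member with the largest rise.
ACTA2: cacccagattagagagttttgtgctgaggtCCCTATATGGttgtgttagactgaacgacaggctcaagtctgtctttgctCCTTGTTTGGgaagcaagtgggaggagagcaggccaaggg

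Repeats of CGG were searched in the same windows because CGGBP1 binds them. CGGCGGCGG, 3 repeats, on either strand lay in 11 of the 81 member windows (13.6%) and in 6.21% of all windows. The 10 members that held it were ACTN4, ACTR2, ACTR3, ARPC2, ENAH, FLNA, ILK, ITGB1, PXN and TPM1. ENAH was the only one of them past an adjusted p under 0.05, and the log2 fold changes of the other 9 ran from -0.52 (ITGB1) to 0.81 (ILK). A match describes letters in a window and was not tested against binding.

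Of 12 genes for filament assembly, capping and monomer binding, 2 fell and 0 rose at an adjusted p under 0.05 (edgeR). Of all tested genes 1.21% fell and 0.572% rose by this rule. At an unadjusted p under 0.05, 3 were lower and 0 higher, against 8.32% and 8.11% of all tested genes. DESeq2 called 3, CFL1, ENAH and PFN1, all lower, against 3.45% of all tested genes. Of 12 log2 fold changes, 10 lay below 0, with a median of -0.13, against 49.9% of all tested genes below 0. PFN1, profilin 1, which loads actin monomers onto growing filament ends (ENSG00000108518, chr17:4945652-4949061, minus strand), had 1021, 799.7 and 656 RPM in siControl. It had 417, 439 and 348 in siCGGBP1, below every siControl library at 75 µM. PFN1 fell to 48.6% of siControl, a log2 fold change of -1.04 ± 0.193 (SE, adjusted p = 0.0184, edgeR). Its 0 µM siControl library had 391, within the siCGGBP1 range, and the 200 µM library 686. The call was lost without siControl replicate 1 or 2 and without siCGGBP1 replicate 1 or 2, with an adjusted p of at most 0.0954.

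ENAH encodes Mena, which extends filaments at the cell edge and at adhesions (ENSG00000154380, chr1:225486765-225653142, minus strand). Its RPM values were 498, 381 and 462 in siControl, 255, 259.9 and 268 in siCGGBP1, and 529.8 and 366 at 0 and 200 µM. The siCGGBP1 libraries lay below all 5 siControl libraries. ENAH fell by 0.78 ± 0.178 on the log2 scale (SE, adjusted p = 0.0480, edgeR), and the adjusted p ran from 0.0686 to 0.168 with 1 library left out. CFL1, cofilin 1, which severs old filaments, had 1880.4, 1574 and 1663 RPM in siControl and 1333, 1117 and 1151 in siCGGBP1. Its groups did not overlap, but its log2 fold change of -0.51 ± 0.145 (SE) had an adjusted p of 0.0984 in edgeR, of 0.0483 in edgeR with the replicate block and of 0.0130 in DESeq2. The 0 µM library had 1211 RPM, within the siCGGBP1 range. The Arp2/3 genes ACTR2, ACTR3, ARPC1B, ARPC2, ARPC3 and ARPC5, which branch filaments, had log2 fold changes from -0.25 to 0.25 and did not pass the test. The monomer-binding TMSB10 had -0.01 (SE 0.144), the capping gene CAPZB -0.05 and VASP -0.27, and none of them passed.

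Of 16 genes for contractile and thin-filament proteins, MYH10 and TPM4 fell and MYL6 rose at an adjusted p under 0.05 (edgeR). Of all tested genes 1.21% fell and 0.572% rose by this rule. At an unadjusted p under 0.05, 3 were lower and 3 higher, against 8.32% and 8.11%. DESeq2 called MYH10, TPM3 and TPM4 lower and MYL6 higher, against 3.45% and 2.55%. On each side of 0 lay 8 log2 fold changes. TAGLN (0.32), TAGLN2 (0.46), CNN3 (0.25), TPM2 (-0.57) and CALD1 (-0.31) did not pass with edgeR. MYH10, the heavy chain of non-muscle myosin IIB (ENSG00000133026, chr17:8474207-8631376, minus strand), had 121, 129 and 129 RPM in siControl and 60.6, 51.8 and 62.9 in siCGGBP1. All 5 siControl libraries lay above siCGGBP1, with 137 at 0 µM and 116 at 200 µM. MYH10 fell to 46.4% of siControl, a log2 fold change of -1.11 ± 0.227 (SE, adjusted p = 0.0291, edgeR). The call remained only without siCGGBP1 replicate 3, and the adjusted p reached 0.117 with other libraries left out. NDEL1, on the other strand at its 3′ end, differed by 1.19 on the log2 scale (adjusted p = 0.309, edgeR). MYH9, the heavy chain of myosin IIA, had 373, 395 and 426 against 359, 349.7 and 354 RPM, -0.17 on the log2 scale (adjusted p = 0.681, edgeR).

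TPM4, a tropomyosin of stress fibres (ENSG00000167460, chr19:16067021-16103002, plus strand), had 242, 238 and 232 RPM in siControl and 148, 123 and 106 in siCGGBP1. At 0 and 200 µM TPM4 had 253 and 242, with siControl. TPM4 fell by 0.92 ± 0.202 on the log2 scale (SE, adjusted p = 0.0403, edgeR), with adjusted p-values from 0.0769 to 0.129 when 1 library was left out. TPM1 was higher in level in each siCGGBP1 library, at 364, 360.4 and 366 against 462, 451 and 439.8 RPM. Its groups did not overlap, but its log2 fold change of 0.31 ± 0.161 (SE) did not pass (adjusted p = 0.365, edgeR), and the single siControl libraries, at 525 and 501, lay above siCGGBP1. TPM3 had 375, 346 and 401 against 224, 259 and 290.2 RPM without overlap, a log2 fold change of -0.54 ± 0.182 (SE, adjusted p = 0.159, edgeR). TPM3 had 324 and 266 in the single siControl libraries, the latter within the siCGGBP1 range.

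MYL6, the essential light chain of non-muscle and smooth muscle myosin II (ENSG00000092841, chr12:56158346-56163496, plus strand), had 473, 450.0 and 395 RPM in siControl and 794, 809 and 906 in siCGGBP1. At 0 and 200 µM siControl had 501 and 453, so all 5 lay below siCGGBP1. MYL6 rose 1.90-fold, a log2 fold change of 0.93 ± 0.160 (SE, adjusted p = 0.0138, edgeR). The call was lost without siControl replicate 2 and without siCGGBP1 replicate 1, with an adjusted p of at most 0.0732. SMARCC2, on the other strand at its 3′ end, differed by 0.34 on the log2 scale (adjusted p = 0.564, edgeR). The regulatory light chains MYL9, MYL12A and MYL12B had 0.43, -0.18 and 0.39 and did not pass, and MYL12A and MYL12B are near copies of each other whose reads could be split between them. CNN1, calponin of smooth muscle (ENSG00000130176, chr19:11538767-11550323, plus strand), had 5.00, 10.6 and 5.91 RPM in siControl and 28.3, 24.1 and 14.4 in siCGGBP1. Its groups did not overlap, its log2 fold change of 1.63 ± 0.588 (SE) had an adjusted p of 0.184 (edgeR), and the single siControl libraries had 36.3 and 21.3, above and within the siCGGBP1 range.

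Shares of each gene within the reads of its family, chosen after the values were seen and given without a test, describe these differences free of the scale between libraries. ACTA2 took 0.112%, 0.235% and 0.176% of the reads of the 3 actins in siControl and 2.3%, 1.89% and 1.47% in siCGGBP1, with 1.02% and 0.593% at 0 and 200 µM. ACTG1 took 51.9 ± 3.52% of them in siControl and 41.0 ± 2.70% in siCGGBP1, and ACTB 47.9 ± 3.57% and 57.2 ± 2.45% (SD, n = 3). The 200 µM siControl library had 43.3% for ACTG1 and 56.1% for ACTB, within the siCGGBP1 ranges, and the library without 4sU 58.5% and 40.5%. Over the 5 siControl libraries the ACTB share ranged over 15.6 percentage points, more than the difference of 9.24 between the groups. MYH10 took 24.5%, 24.6% and 23.2% of the reads of MYH9 and MYH10 in siControl, 14.4%, 12.9% and 15.1% in siCGGBP1, and 22.3% and 23.0% in the single siControl libraries. These 5 siControl values lay within 2.31 percentage points of each other and above siCGGBP1. TPM4 took 16.0 ± 0.904% of tropomyosin reads in siControl and 10.7 ± 1.95% in siCGGBP1, and TPM1 24.6 ± 2.03% and 38.7 ± 3.91% (SD, n = 3). The single siControl libraries lay with siControl for TPM4 (19.4% and 17.4%) and within the siCGGBP1 range for TPM1 (40.2% and 36.0%). MYL6 took 29.6 ± 4.63% of the reads of the 4 light chains with siControl but 40.8 ± 3.45% with siCGGBP1, and CNN1 1.46 ± 0.654% and 4.35 ± 1.53% of calponin reads (SD, n = 3).

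None of the 8 crosslinkers and stress-fibre LIM proteins passed an adjusted p under 0.05 with edgeR, and DESeq2 called 0. At an unadjusted p under 0.05, 1 was lower and 1 higher, against 8.32% and 8.11% of all tested genes. The median log2 fold change of the 8 genes was -0.03. PDLIM7, which tethers signalling proteins to actin through its LIM domains (ENSG00000196923, chr5:177483394-177497606, minus strand), had 72.2, 63.7 and 43.1 RPM in siControl and 91.2, 114 and 91.6 in siCGGBP1. The single siControl libraries had 14.5 and 21.3, below both groups. Its log2 fold change was 0.73 ± 0.268 (SE, adjusted p = 0.193, edgeR). The groups of ACTN4 did not overlap (log2 fold change -0.43, adjusted p = 0.240, edgeR), nor did those of LASP1 (-0.20). ACTN1, FLNA, FLNC, LIMA1 and PDLIM5 lay between -0.21 and 0.22.

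All 5 integrin genes had log2 fold changes below 0, with a median of -0.31, against 49.9% of all tested genes below 0. Of 23 other integrin and adhesion genes in the wider list described below, 14 lay above 0, with a median of 0.24. With edgeR 0 passed an adjusted p under 0.05, and DESeq2 called 0. At an unadjusted p under 0.05, 1 was lower, against 8.32% of all tested genes. ITGAV, the alpha-v chain that pairs with several beta chains (ENSG00000138448, chr2:186590010-186680901, plus strand), had 46.9, 37.7 and 41.3 RPM in siControl and 25.4, 23.5 and 36.1 in siCGGBP1. These did not overlap, and the single siControl libraries were higher than either group, at 115 and 56.8. Its log2 fold change was -0.57 ± 0.334 (SE, adjusted p = 0.437, edgeR). ITGB1, the beta chain of most integrins of fibroblast-like cells, had 496, 381 and 514 against 306, 252 and 411 RPM, which overlapped. ITGA3, ITGA5 and ITGB5 had log2 fold changes of -0.31, -0.04 and -0.02.

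No gene of the adhesion plaque passed an adjusted p under 0.05 with edgeR. At an unadjusted p under 0.05, 1 was higher, against 8.11% of all tested genes, and DESeq2 called 1, ILK, higher, against 2.55%. ILK, the pseudokinase that joins integrins to parvin and actin (ENSG00000166333, chr11:6603708-6610874, plus strand), had 78.4, 86.9 and 68.8 RPM in siControl and 131, 141 and 137 in siCGGBP1. The single siControl libraries had 61.9 and 58.3, so all 5 lay below siCGGBP1. Its log2 fold change was 0.81 ± 0.219 (SE), with an adjusted p of 0.0863 in edgeR and of 0.0317 with the 2 single libraries in siControl. TAF10, on the other strand at its 3′ end, differed by -0.27 on the log2 scale (adjusted p = 0.591, edgeR). PARVA, the partner of ILK, had 0.35, and PXN, ZYX, TLN1 and VCL lay between -0.29 and 0.15. AP3M1, on the other strand at the 3′ end of VCL, fell by 1.69 on the log2 scale (adjusted p = 0.0488, edgeR). Whether AP3M1 reads were counted for VCL was not tested.

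EZR encodes ezrin, which ties actin to the membrane (ENSG00000092820, chr6:158765741-158819368, minus strand). It had 397, 434 and 333 RPM in siControl, 171, 218 and 186 in siCGGBP1, and 378 and 321 in the single siControl libraries. All 5 siControl libraries lay above siCGGBP1. EZR fell to 49.4% of siControl, a log2 fold change of -1.02 ± 0.192 (SE, adjusted p = 0.0196, edgeR). The call was lost without siControl replicate 1 or 2 and without siCGGBP1 replicate 1, with an adjusted p of at most 0.117. MSN, moesin, the other member of its family in the set, had a log2 fold change of -0.07 (SE 0.182), and EZR took 61.7 ± 2.32% of the reads of the pair with siControl but 45.5 ± 3.18% with siCGGBP1 (SD, n = 3). AHNAK, AHNAK2 and VIM, which are membrane scaffolds and the intermediate filament protein vimentin, had log2 fold changes of -0.24, -0.33 and 0.16 in total RNA and did not pass. SRF itself (ENSG00000112658, chr6:43171269-43181506, plus strand) had 81.2, 130.0 and 64.0 RPM in siControl and 57.2, 104 and 109.8 in siCGGBP1. The groups overlapped, and the log2 fold change was -0.02 ± 0.322 (SE, adjusted p = 0.985, edgeR).

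Newly synthesized RNA, the read count multiplied by the new-to-total ratio, was far less precise, with a biological coefficient of variation of 1.78 against 0.399 in total RNA. Without 4sU, the members had 0.0593 conversions per 100 covered T, against 0.0973 to 0.171 in the 6 libraries with 75 µM. The ratio was 0 for 29 of 56 members in siControl replicate 3 and for 23 in siCGGBP1 replicate 3, against 8 to 11 members in the other 4 libraries. Of all tested genes it was 0 for 57.2% and 59.2% in these replicates, and for 22.5% to 31.9% in the other 4 libraries. Over all tested genes the median ratio per library ran from 0% to 4.74% in siControl and from 0% to 3.37% in siCGGBP1. The median ratio over the members, averaged over libraries, was 1.43 ± 1.26% in siControl and 1.51 ± 0.633% in siCGGBP1 (SD, n = 3), a difference within that spread. No member was lower in newly synthesized RNA at the thresholds of the study by edgeR or DESeq2, against 0.0197% and 0.0986% of tested genes. The study itself reported far more genes changed in newly synthesized RNA at these thresholds than either fit called here. At an unadjusted p under 0.05, 2 members were lower and 4 higher, against 1.9% and 1.24%. AHNAK2 was the 1 of 56 members that edgeR called higher, against 0.0296%, and DESeq2 called AHNAK2 and ACTA2 higher, against 0.069%. LASP1 was the 1 member whose groups did not overlap and were lower, against 4.42% of tested genes, and ACTA2, CALD1, ITGAV and MYL6 were the 4 higher ones, against 2.9%.

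ACTB had ratios of 4.41%, 4.86% and 3.77% in siControl and 3.29%, 2.5% and 6.66% in siCGGBP1, which overlapped. In newly synthesized RNA the difference was -0.79 ± 0.357 on the log2 scale (SE, adjusted p = 0.994, edgeR), beside -0.69 in total RNA. ACTG1 had 2.39%, 4.33% and 0.11% in siControl and 2.68%, 2.66% and 0.75% in siCGGBP1. The lowest value in each group came from replicate 3, and the log2 fold change was -1.46 ± 0.564 (SE, adjusted p = 0.994, edgeR), beside -1.27 in total RNA. On conversion counts in place of the ratio, ACTG1 was called lower and ITGAV higher. The fitted values of CFL1, PFN1, TPM3, MYH10 and EZR in newly synthesized RNA changed sign under at least 1 alternative.

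For ACTA2 the new reads numbered 0, 3 and 0 with siControl but 71, 68 and 384 with siCGGBP1, at ratios of 11.2%, 10.4% and 66.2% in the latter. Against a floor of 3 reads in each siControl library it was 49.7-fold higher, and 23.9-fold without siCGGBP1 replicate 3. The upper posterior limits of its siControl ratios, 9.24%, 9.19% and 3.97%, allow more than 3 reads, so these folds are not lower bounds. Its adjusted p was 0.899 (edgeR, although DESeq2 called it). Its conversions per 100 covered T were 0.116, 0.175 and 0.0194 in siControl and 0.407, 0.375 and 1.29 in siCGGBP1. The library without 4sU had 0.262, above each siControl library with 75 µM and below each siCGGBP1 library, and the siControl library with 200 µM had 1.20. PFN1, TPM4, VCL, ARPC5 and PARVA also had high values without 4sU, at 0.251, 0.270, 0.263, 0.253 and 0.227.

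AHNAK2, a giant scaffold protein (ENSG00000185567, chr14:104937244-104978374, minus strand), showed 0 new reads in each siControl library, but 99, 0 and 510 with siCGGBP1. It was 57-fold higher against a floor of 3 reads in each siControl library (adjusted p = 0.0391, edgeR). Without siCGGBP1 replicate 3 it was 18.3-fold higher, and siCGGBP1 replicate 2 stood with siControl. The upper posterior limits of its siControl ratios, 1.66%, 1.1% and 0.81%, allow more than 3 reads, so these folds are not lower bounds. The call remained without siControl replicate 3 and without siCGGBP1 replicate 2 and was lost in the other 4 fits that left out 1 library, with the replicate block, with conversion counts and with the posterior mean ratio. Its level in total RNA was 162, 132 and 96.5 RPM in siControl and 104, 135 and 71.2 in siCGGBP1, which overlapped. ITGAV new reads numbered 0, 9 and 0 with siControl but 35, 46 and 278 with siCGGBP1, and its ratio in siCGGBP1 replicate 3 was 54.7%. MYL6 new reads were at 0 with siControl but at 29, 13 and 14 with siCGGBP1. Against the floor this was 6.18-fold higher, and 3.91-fold without siCGGBP1 replicate 1. Its conversions per 100 covered T overlapped, at 0.0666, 0.0181 and 0.0144 in siControl and 0.0706, 0.0280 and 0.0403 in siCGGBP1. The upper posterior limits of its siControl ratios, 0.2%, 0.1% and 0.12%, lay above the lower limit of 0.06% in siCGGBP1 replicate 3. ILK new reads went the other way, with 35, 15 and 0 against 0 in each siCGGBP1 library. With siCGGBP1 at the floor of 3 reads ILK was 6.17-fold lower, and 2.42-fold without siControl replicate 1. Its siCGGBP1 ratios had upper posterior limits of 1.16%, 0.44% and 0.36%. PXN had 15, 23 and 0 against 0 in each siCGGBP1 library, 4.43-fold lower against the same floor and 2.93-fold without siControl replicate 2. Its siCGGBP1 ratios had upper posterior limits of 1.27%, 0.39% and 0.25%. For MYL6, ILK and PXN too the upper limits allow more than 3 reads, so their folds are not lower bounds. MYL9 had 34, 0 and 0 against 0, so its difference rested on siControl replicate 1 alone.

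Among members with at least 1000 reads in every library with 75 µM 4sU, FLNA, MYL6 and TPM2 had the lowest mean ratios. FLNA, a crosslinker of filaments, had a ratio of 0 in all 6 libraries, with upper posterior limits of 0.08% to 0.15%. The mean ratio over the 6 libraries was 0.102% for MYL6 and 0.128% for TPM2. The highest mean ratios were those of AHNAK2 (10.1%), VCL (8.26%) and EZR (7.13%). AHNAK2 had 0 in each siControl library and 9.51%, 0% and 50.9% in siCGGBP1, and its mean without siCGGBP1 replicate 3 was 1.9%, below the 6.75% of VCL and 5.7% of EZR in the same 5 libraries. VCL, vinculin, ran from 4.15% to 15.8%, and EZR from 1.23% to 14.3%, the lowest and the highest EZR value both coming from siCGGBP1. Without 4sU, VCL had 0.263 conversions per 100 covered T, within its range of 0.183 to 0.766 with 75 µM. EZR had 0.0128 without 4sU, against 0.114 to 0.703. The part of this background in the VCL ratio was not tested.

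**Figure D3:**
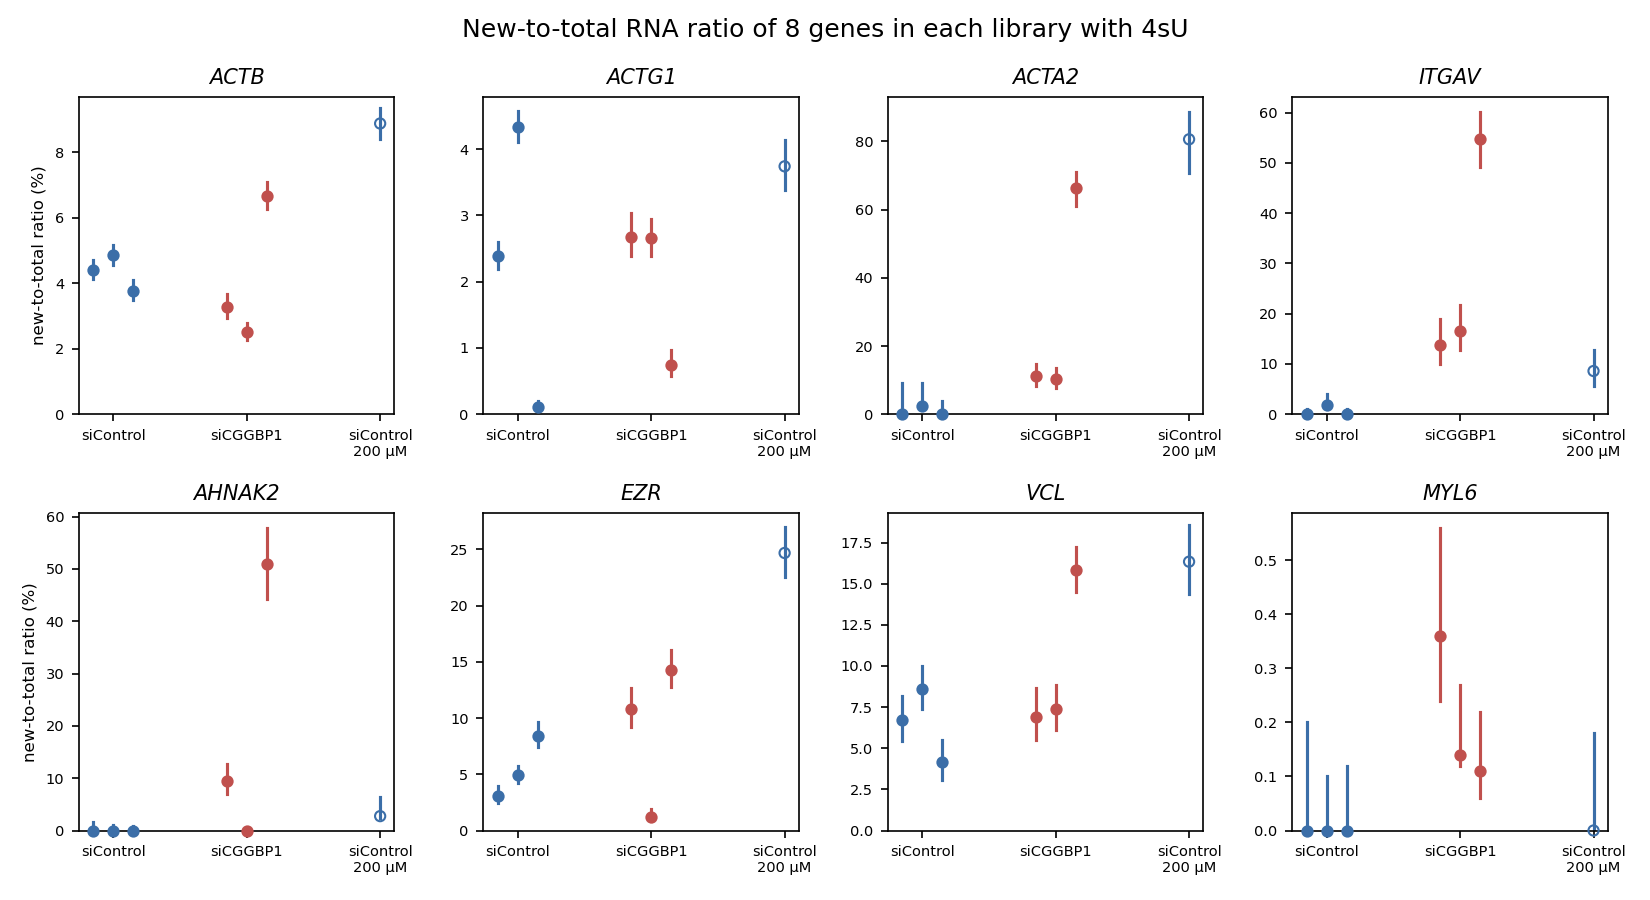
New-to-total RNA ratio of 8 members, in percent, in each library with 4sU. Points are the maximum a posteriori ratio, lines its posterior limits, and the open point is the single siControl library with 200 µM 4sU. siCGGBP1 replicate 3 stands apart in ACTA2, ITGAV and AHNAK2, at 66.2%, 54.7% and 50.9%, and the 200 µM siControl library has 80.6% for ACTA2.

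A wider list of 99 further actin and adhesion genes, among them formins, further capping and severing proteins, integrins and the MRTF coactivators, had 93 genes that passed the filter. At the thresholds of the study edgeR called 2 of 93 lower (2.15%, against 0.957% of all tested genes) and 0 higher (against 0.454%), while DESeq2 called 6 lower and 2 higher (against 2.02% and 1.64%). At an unadjusted p under 0.05, 10 were lower and 13 higher, against 8.32% and 8.11%. The groups did not overlap for 11 lower genes (11.8%) and 23 higher ones (24.7%), against 12.1% of all tested genes each way. CFL2, the cofilin of muscle, had 163, 99.2 and 114 RPM in siControl and 18.0, 19.01 and 26.2 in siCGGBP1. Values of 112 and 139 came from the single siControl libraries, and CFL2 fell by 2.57 ± 0.298 on the log2 scale (SE, adjusted p = 0.00183, edgeR). LIMS1, PINCH1, which binds ILK, had 212, 169.7 and 235 against 113, 77.8 and 76.2 RPM, with 258 and 215 in the single libraries. LIMS1 fell by 1.21 ± 0.236 on the log2 scale (SE, adjusted p = 0.0226, edgeR), so it and ILK lay on opposite sides of 0. Neither of the MRTF coactivator genes passed the test. The median log2 fold change of the 93 genes was 0.12, beside -0.09 for the 56 members.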

How the data were processed

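SLAM-Seq libraries (QuantSeq 3′ kit) were analysed as deposited. The authors removed ribosomal reads with Bowtie2 2.3.0, mapped to GRCh38 with STAR 2.5.3a (versions from the submitters' processing notes) and used GRAND-SLAM. It gave the deposited expected counts of reads, conversions and covered T, not normalized, and new-to-total ratios, deposited as a fraction with posterior limits. Whether counting used strand, and whether duplicates were removed, is not given in the sources used here. Intervals and floors cover counting error only, and the floor of 3 new reads does not cover the uncertainty of the ratio.

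The members and lists, and the family shares, were chosen with earlier results of these data known. Counts were rounded, and 53 members had a fractional count. The fit took genes that reached 100 reads in 3 or more of the 6 libraries and used edgeR 4.0.16 (TMM, quasi-likelihood F test, Benjamini-Hochberg over 10138 genes) in R 4.3.3. Newly synthesized RNA was the count times the maximum a posteriori ratio, rounded, with library sizes of total reads. RPM values are scaled by TMM. SE is the absolute log2 fold change over the square root of F. Values in every library are given for members past an adjusted p under 0.05, members whose groups do not overlap with an absolute log2 fold change above 0.5, the actins, SRF and the member with the largest change in each role. The 3 highest and 3 lowest mean ratios are given for turnover. MYH9, TPM1, ITGB1, ACTN4, LASP1, CALD1, PXN and MYL9 were named after their values were seen.

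Same-numbered libraries of the groups deviated together (correlations of 0.122, 0.215 and 0.105, other pairs -0.12 to -0.0412), so a fit with the replicate number as a block was an alternative. Others were DESeq2 1.42.0, its size factors, other filters, conversion counts, the posterior mean ratio, each library left out and, chosen after seeing the data, the single siControl libraries added to siControl. Fits were tested on simulated data in which 200 genes were changed, with the spread fitted here. The total RNA fit recovered 47.5% of them at a log2 fold change of 1.5 and 91.5% at 3. The fit of newly synthesized RNA recovered 0% and 2%, so an absence of calls there does not show an absence of change. All 56 members had a GENCODE 44 position by gene identifier. For 10 of them another gene with counts lay within 500 bases of the 3′ end. Of these neighbours only AP3M1, at VCL, passed an adjusted p under 0.05 in total RNA. No member was at 0 in total RNA, and no 2 libraries held identical counts.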

Additional observations from a re-analysis of the deposited data

Results flagged for a closer look

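Over the 56 members, the single siControl library with 200 µM 4sU, whose conversions entered no comparison, had 0.174 T-to-C conversions per 100 covered T. The library without 4sU had 0.0593, and the 6 libraries with 75 µM had 0.0973 to 0.171. Over all genes the library with 200 µM had 0.218, within the range of 0.183 to 0.263 with 75 µM, and the library without 4sU had 0.0638.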

How the results depend on the processing

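In total RNA, DESeq2 size factors, no filter beyond 1 read and an adjusted p under 0.1 moved no count of members by over 1.5 times, and DESeq2 called 9 lower and 3 higher at an adjusted p under 0.05. With the replicate block, which pairs same-numbered libraries, 4 members were lower and 1 higher at the thresholds of the study and 8 and 2 at an adjusted p under 0.05, where CFL1 joined, and the block changed no other call of a member in total RNA. With 1 library left out, which also leaves fewer samples, the members lower at the thresholds of the study numbered 1 to 3 and those higher 0 to 1, and at an adjusted p under 0.05, 1 to 4 and 0 to 2. With the 2 single siControl libraries added, chosen after seeing the data, 2 members were lower and 0 higher at the thresholds of the study. Of all tested genes 1.41% and 0.562% were so called. For the replicate block and for fits with 1 library left out, no share of all tested genes is given here, so those counts only describe the members. Among the other genes of the pathway, the lower and higher counts were 6 and 2 with DESeq2, 5 and 2 with no filter beyond 1 read, 5 and 1 with the single libraries added, 3 and 1 with the replicate block, and 1 to 3 lower with 1 library left out. In newly synthesized RNA the count of higher members was 2 with DESeq2, 0 with the posterior mean ratio, 0 with the replicate block, and 0 to 1 with 1 library left out, and conversion counts gave 1 lower member. Signs that changed in newly synthesized RNA with 1 library left out were those of CFL1 (log2 fold changes of -0.65 to 0.90), TPM3 (-1.59 to 1.36), PFN1 (-0.86 to 0.29), MYH10 (-8.11 to 1.64) and EZR (-0.96 to 0.12), and SRF in total RNA ran from -0.22 to 0.31. CFL1 was -0.0597 with conversion counts, and TPM3 -0.98 with the replicate block. The share of MYH10 among its pair of heavy chains differed by -10.4 to -9.33 percentage points, and that of EZR by -17.8 to -14.6, with 1 library left out. With 1 mismatch allowed, 14 members in place of 6 held a CArG box. Causes were not tested. Few reads limit the precision for TAGLN (38 to 166 in each of the 6 libraries), CNN1 (50 to 284) and ACTA2 (67 to 657).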
